A study of Mus musculus with 8 samples.

Results

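Fatty acid oxidation and ketogenesis were described from the mRNAs of 32 nuclear genes found in RNA of purified mouse liver mitochondria. The genes were chosen as a pathway, as the enzymes that activate, import and oxidize fatty acids, with 2 genes of ketone body metabolism, the liver fatty acid binding protein Fabp1, thioesterases and the receptor Ppara. Every transcript of a member gene was summed per gene, and all 32 had at least 1 transcript in the count table, of 6446 nuclear genes in all. The mice were C57BL/6N wild type animals of 12 weeks (12 W) or 65 weeks (65 W), with 4 libraries in each group. Livers were homogenized, nucleic acids outside the mitochondria were digested, and the organelles were purified on a sucrose gradient. Barcoded cDNA amplified by PCR was pooled over all 8 libraries and read by Nanopore sequencing. The study does not tie a library to a flow cell. The study describes the 12 W mice as female and states no sex for the 65 W mice in the sources used here, so age and sex cannot be told apart. The labels call the replicates biological and do not tie a library to an animal.

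In the liver, long-chain fatty acids are bound by Fabp1 in the cytosol and coupled to coenzyme A by acyl-CoA synthetases on the outer mitochondrial membrane and the endoplasmic reticulum. Cpt1a, Slc25a20 and Cpt2 carry the acyl groups into the matrix as carnitine esters, where repeated dehydrogenation, hydration, oxidation and thiolysis release acetyl-CoA. Peroxisomes shorten very long and branched chains with enzymes of their own. In fasting, the liver turns acetyl-CoA into ketone bodies, and Ppara, a nuclear receptor that fatty acids activate, switches on many genes of both organelles.

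These mRNAs are a small part of an RNA pool in which the mitochondria-encoded transcripts dominate. The 12 W libraries had 104554 to 191092 counts in total, and the 65 W libraries had 12630 to 105252. Between 74.8% and 82.4% of a library's counts were mitochondria-encoded, and 17 nuclear transcripts that copy mitochondrial genes took another 8.12% to 12.8%. The remaining nuclear counts, called other nuclear counts here, numbered 16295, 7604, 16947 and 20669 for the 12 W replicates in order and 1523, 6109, 3257 and 11091 for the 65 W replicates, called 65W-1 to 65W-4 below. Shares and levels below are relative to these. The 65 W group therefore held 21980 other nuclear counts against 61515 at 12 W, and 65W-1 was the shallowest library. Lars2 alone, the mitochondrial leucyl-tRNA synthetase, took 11.3% to 36.7% of the other nuclear counts, the most in 65W-1, so shares are also given without it. The tissue label was checked against cell type markers. The 8 hepatocyte markers held 12545 counts, or 15.5 ± 1.81% of other nuclear counts at 12 W and 13.1 ± 1.64% at 65 W (SD, n = 4). Markers of other cells were rare, with 122 counts on 6 of 7 Kupffer cell markers, 69 on 4 of 5 erythroid markers, 45 on 4 of 5 lymphocyte markers, 32 on 5 stellate cell markers, 24 on 5 endothelial markers and 4 on 2 of 5 cholangiocyte markers.

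The 32 genes together held 672 counts, 477 at 12 W and 195 at 65 W. That was 0.805% of the other nuclear counts and 0.0814% of all counts. For scale, 20 genes of secreted hepatocyte proteins held 20525 counts, and 5 urea cycle genes held 201. Of the 672 counts, 660 fell on transcripts annotated as protein coding, 7 on retained introns and 5 on other processed transcripts. The number of counts per library was 136, 46, 125 and 170 at 12 W, against 13, 58, 33 and 91 at 65 W.

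As a share of other nuclear counts, the 32 genes made up 0.835%, 0.605%, 0.738% and 0.822% of them at 12 W, against 0.854%, 0.949%, 1.01% and 0.820% at 65 W. The means were 0.750 ± 0.106% and 0.909 ± 0.0883% (SD, n = 4). The groups overlapped, since 65W-4 lay below 12W-1 and 12W-4, and the ratio of the pooled shares was 1.14 with a 95% counting interval from 0.964 to 1.35. Without Lars2 in the denominator, the shares were 1.02%, 0.801%, 0.845% and 0.949% at 12 W, against 1.35%, 1.26%, 1.30% and 0.925% at 65 W. All older libraries other than 65W-4 then lay above the younger ones, and 65W-4 lay among them. Because the genes were chosen with earlier results of these data known, sums over them carry no p-value. Intervals cover counting error only. Those of ratios pool the libraries of an age group and leave out the variation between libraries, which exceeded counting noise. The libraries were PCR-amplified and the study describes no molecular identifiers, so copies of a molecule may be counted more than once, and the intervals may be too narrow. The purified mitochondria came from whole livers with their mixed cells, so fewer cells of a type and less RNA per cell cannot be told apart, and the counts do not separate mRNA bound to mitochondria from mRNA of other membranes or the cytosol.

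**Figure D1:**
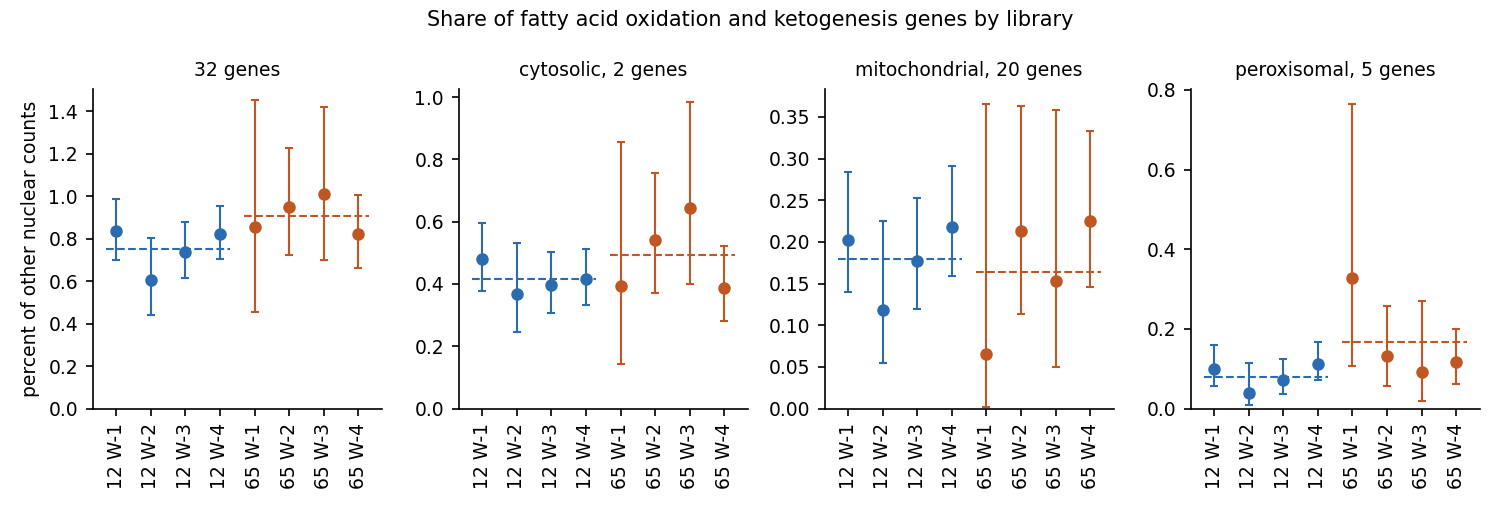
Share of the 32 genes and of the cytosolic, mitochondrial and peroxisomal members in the other nuclear counts (y axes, percent) for each library (x axis). Points are libraries, bars are 95% exact binomial intervals for counting error, and dashed lines are group means (blue, 12 W; orange, 65 W). The groups overlap in all 4 panels, and the widest bars belong to 65W-1.

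The compartments contributed unequally, and 2 cytosolic genes gave 53.9% of the counts. Fabp1 and the thioesterase Acot1 together had 362 counts, 259 at 12 W and 103 at 65 W, a share of 0.415 ± 0.0470% and 0.492 ± 0.124% (SD, n = 4). The 20 genes of the mitochondrial matrix and inner membrane had only 161 counts, 24.0% of the total. Their share was 0.203%, 0.118%, 0.177% and 0.218% at 12 W, against 0.0657%, 0.213%, 0.154% and 0.225% at 65 W, or 0.179 ± 0.0437% against 0.164 ± 0.0729%. The lowest of these values, in 65W-1, rested on 1 count, and the log2 ratio of the means was -0.12, or 0.14 without that library. The ratio of pooled shares was 1.05 with a counting interval from 0.727 to 1.50. The 3 genes of the outer membrane, Acsl1, Acsl5 and Cpt1a, had 59 counts. The 5 peroxisomal genes had 83 counts, 54 at 12 W and 29 at 65 W. Their share was 0.0982%, 0.0395%, 0.0708% and 0.111% at 12 W against 0.328%, 0.131%, 0.0921% and 0.117% at 65 W. The ratio of pooled shares was 1.50 with an interval from 0.923 to 2.40, and the groups overlapped. The 65W-1 value of 0.328% came from 5 counts, and the log2 ratio of the means was 1.06, or 0.50 without that library. Eci2, found in both organelles, had 5 counts, and Ppara had 2.

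Fabp1, the fatty acid binding protein that fills the hepatocyte cytosol, was the one abundant mRNA of the pathway. The gene (ENSMUSG00000054422) occupies 71199827 to 71205023 of chromosome 6 in the GRCm38 build. Its 345 counts were 51.3% of the total for the 32 genes. Among all 6446 nuclear genes it ranked 26 by counts. Next among the members by counts were Scp2 with 51 and Acaa2 with 31.

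The promoter of Fabp1 is shown because it was the only one of the 28 members with a promoter in the RefSeq table that held AGGNCANAGGNCA on either strand within 250 bases before to 50 bases after a transcription start. This is a direct repeat with a spacer of a single base, the form that Ppara binds with its partner Rxra. Of 32851 promoters of this length, 125 held it, or 0.381%. The RefSeq start, at 71199879, lies 52 bases inside the start of the gene in GENCODE, given above. The stretch printed is the 198 bases before the GENCODE start, at chr6:71199629-71199826 on the plus strand of GRCm38. The capitals mark the match, which reads on the minus strand and ends 54 bases before the RefSeq start and 2 bases before the GENCODE start.
Fabp1 promoter: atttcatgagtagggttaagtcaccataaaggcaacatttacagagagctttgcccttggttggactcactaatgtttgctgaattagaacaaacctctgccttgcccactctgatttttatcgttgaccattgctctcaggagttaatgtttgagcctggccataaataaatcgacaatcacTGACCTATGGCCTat
A match of letters is a description and not a measured binding site. The promoters of Acaa2, Acat1, Decr1 and Hsd17b4 were not analysed here.

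Fabp1 had counts in every library, 77, 26, 65 and 80 at 12 W, against 6, 33, 20 and 38 at 65 W. Per 10000 other nuclear counts, these were 47.3, 34.2, 38.4 and 38.7 at 12 W, against 39.4, 54.0, 61.4 and 34.3 at 65 W. The libraries 65W-2 and 65W-3 lay above all 12 W libraries, and 65W-1 and 65W-4 lay among them. In edgeR's quasi-likelihood test, fitted over the 98 nuclear genes with enough counts to be kept by edgeR's filter, the log2 fold change of Fabp1 was 0.38 (SE 0.26, 95% interval -0.19 to 0.94, adjusted p = 0.462 after Benjamini-Hochberg). It was the only member tested in that fit and did not pass the threshold of 0.05. In the same fit 9 of the 98 genes passed, 7 higher and 2 lower at 65 W, which is 9.18%. DESeq2 and limma called no member either, and the unadjusted p of Fabp1 was 0.172 in edgeR's fit, 0.267 in DESeq2 and 0.264 in limma. With no filter, over 6446 genes whose median log2 fold change was -1.32, the value for Fabp1 turned to -0.39.

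The other 31 members had 51 counts or fewer. A second edgeR fit over the 442 genes with at least 20 counts took in 5 members, Fabp1, Scp2, Acaa2, Acsl1 and Acsl5, and used the normalization factors of the first fit. Of the 442 genes 10 passed, 8 higher and 2 lower, which is 2.26%, and none of the 5 members did. An unadjusted p under 0.05 was given to 42 of the 442 genes, which is 9.50%, and to 1 of the 5 members. The median log2 fold change was 0.38 over the 5 members and 0.00 over all 442 genes.

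**Figure D2:**
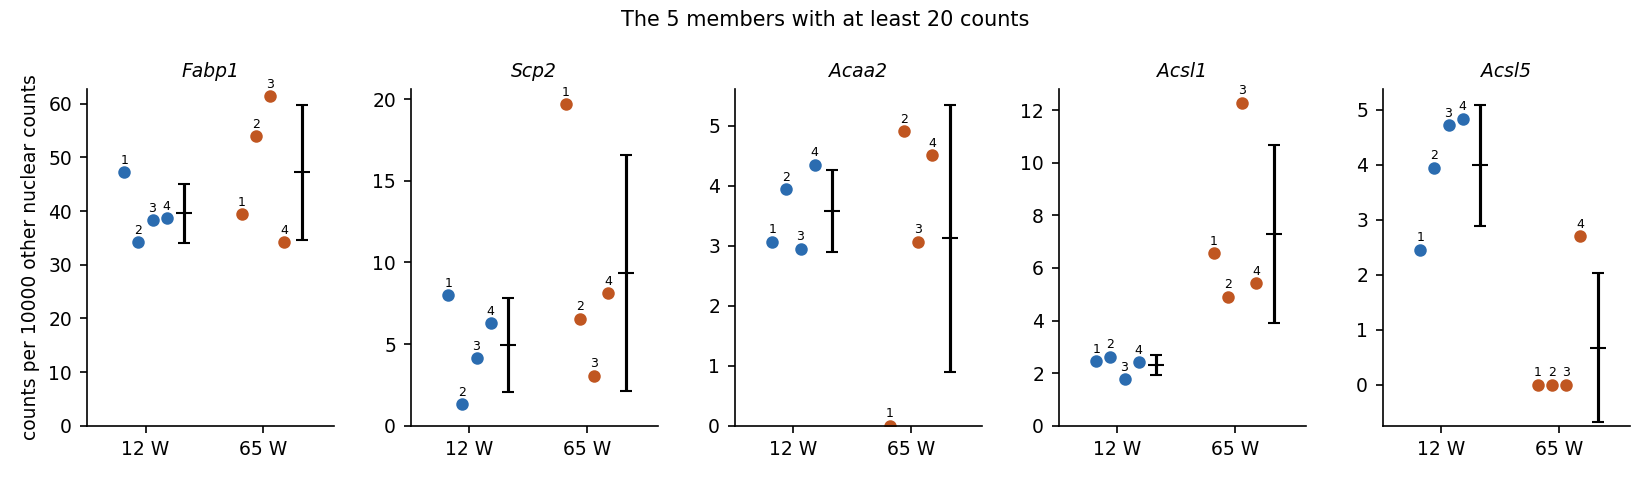
Counts per 10000 other nuclear counts (y axes) of the 5 members with at least 20 counts, in the 12 W and 65 W libraries (points, numbered by replicate), with the group mean ± SD in black. Acsl1 is the member whose groups do not overlap, with 1 count in 65W-1, and 3 of the 4 Acsl5 points at 65 W lie at 0.

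Acsl1 and Acsl5, acyl-CoA synthetases that couple long-chain fatty acids to coenzyme A, had the same number of counts, 28 each, of which 14 for Acsl1 and 3 for Acsl5 came from 65 W libraries. Acsl1 lies on chromosome 8 from 46471037 to 46536051 (ENSMUSG00000018796), and its counts were 4, 2, 3 and 5 at 12 W, against 1, 3, 4 and 6 at 65 W. Per 10000 other nuclear counts, Acsl1 stood at 2.45, 2.63, 1.77 and 2.42 at 12 W and at 6.57, 4.91, 12.3 and 5.41 at 65 W. Every 65 W library lay above every 12 W library. The value in 65W-1 rested on 1 count, and with no count in that library the groups would have overlapped. Among the 442 genes with at least 20 counts, 34 had groups that did not overlap, which is 7.69%, and Acsl1 was the single such member of 5. The ratio of pooled shares was 2.80 with a counting interval from 1.24 to 6.33. The log2 fold change was 1.59 (SE 0.61, 95% interval 0.36 to 2.83), and the unadjusted p of 0.0132 in edgeR's fit became an adjusted p of 0.266, which did not pass.

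Acsl5 lies on chromosome 19 from 55251938 to 55297720 (ENSMUSG00000024981). Its counts were 4, 3, 8 and 10 at 12 W, against 0, 0, 0 and 3 at 65 W. With the 12 W rate, 8.93 counts would have fallen in the 65 W libraries together, and 3 were found, all in 65W-4. Per 10000 other nuclear counts, 65W-4 stood at 2.70, which overlapped the 12 W range of 2.45 to 4.84. The log2 fold change was -1.45 (SE 0.80, 95% interval -3.08 to 0.18, adjusted p = 0.530 in edgeR's fit), and it did not pass. Without 65 W replicate 4 the fitted value was -5.07, with all remaining 65 W libraries at 0, and the adjusted p was 0.323. Acsl1 made up 50.0%, 40.0%, 27.3% and 33.3% of the counts of the pair in the 12 W libraries. In the 65 W libraries it made up all counts of the pair in 65W-1 to 65W-3, which held 1, 3 and 4 counts, and 66.7% of 9 counts in 65W-4. This pair was set side by side after its values were seen, and its percentages were not tested. Acsm1, a medium-chain synthetase of the matrix, had 5 counts, 3 at 12 W and 2 at 65 W.

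The carnitine shuttle had the fewest counts of all steps. Cpt1a, the rate-controlling transferase of the outer membrane, had 3 counts. Slc25a20, the carnitine carrier of the inner membrane, also had 3, and Cpt2, the transferase on the matrix side, had 2. The 3 genes had 4 counts at 12 W and 4 at 65 W, where the 12 W rate would have given 1.43, a ratio of 2.80 with a counting interval from 0.521 to 15.0. With 8 counts in all, no difference in these genes was detectable at this depth. In 65W-1, a count of 0 among 1523 other nuclear counts allows up to 3 counts.

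In the matrix spiral, Acaa2, the thiolase that releases acetyl-CoA, was the most counted gene, with 31 counts (ENSMUSG00000036880). They were 5, 3, 5 and 9 at 12 W, against 0, 3, 1 and 5 at 65 W, or 3.58 ± 0.681 and 3.12 ± 2.23 per 10000 other nuclear counts (SD, n = 4). The libraries overlapped, and the log2 fold change was 0.26 (SE 0.62, 95% interval -1.01 to 1.54, adjusted p = 0.895 in edgeR's fit). The fitted value was thus above 0 while the mean level was lower at 65 W. It was 0.072 without 65 W replicate 2 and 0.020 with mitochondria-encoded counts as library size. The other genes of this step had 7 counts on Hadh, 6 each on Hadha and Echs1 and 3 on Hadhb. Hadha and Hadhb encode the 2 subunits of the trifunctional protein, which handles long chains. The 5 genes together had 37 counts at 12 W and 16 at 65 W, where the 12 W rate would have given 13.2.

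The 4 acyl-CoA dehydrogenases, which open each round of oxidation, had 39 counts. Acadm, for medium chains, had 15 at 12 W and 2 at 65 W, Acadvl, for very long chains, had 5 and 4, Acads, for short chains, had 6 and 1, and Acadl, for long chains, had 5 and 1. By library, the 4 genes had 10, 2, 11 and 8 counts at 12 W and 0, 2, 0 and 6 at 65 W. The 12 W rate would have given 11.1 counts at 65 W against 8 found, a ratio of 0.722 with an interval from 0.287 to 1.61. The electron transfer flavoprotein, which takes the electrons of these enzymes, had 14 counts on Etfa and 12 on Etfb, and its oxidoreductase Etfdh had 3. Together they had 21 counts at 12 W and 8 at 65 W, and the 12 W rate would have given 7.50. The enzymes that prepare double bonds, Eci1, Eci2 and Decr1, had 14 counts, 12 at 12 W and 2 at 65 W.

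Ketone body metabolism was represented by Acat1, which joins acetyl-CoA units in the matrix, and by Bdh1, which makes 3-hydroxybutyrate on the inner membrane. Acat1 had 15 counts and was 1 of 4 members found in every library, with 3, 1, 3 and 3 counts at 12 W and 1, 1, 1 and 2 at 65 W. Bdh1 had 4 counts at 12 W and none at 65 W, where the 12 W rate would have given 1.43, so its absence was not detectable as a difference at this depth. Eci2 and Acot2 were the other members at 0 in all 65 W libraries, with 5 and 2 counts at 12 W.

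**Figure D3:**
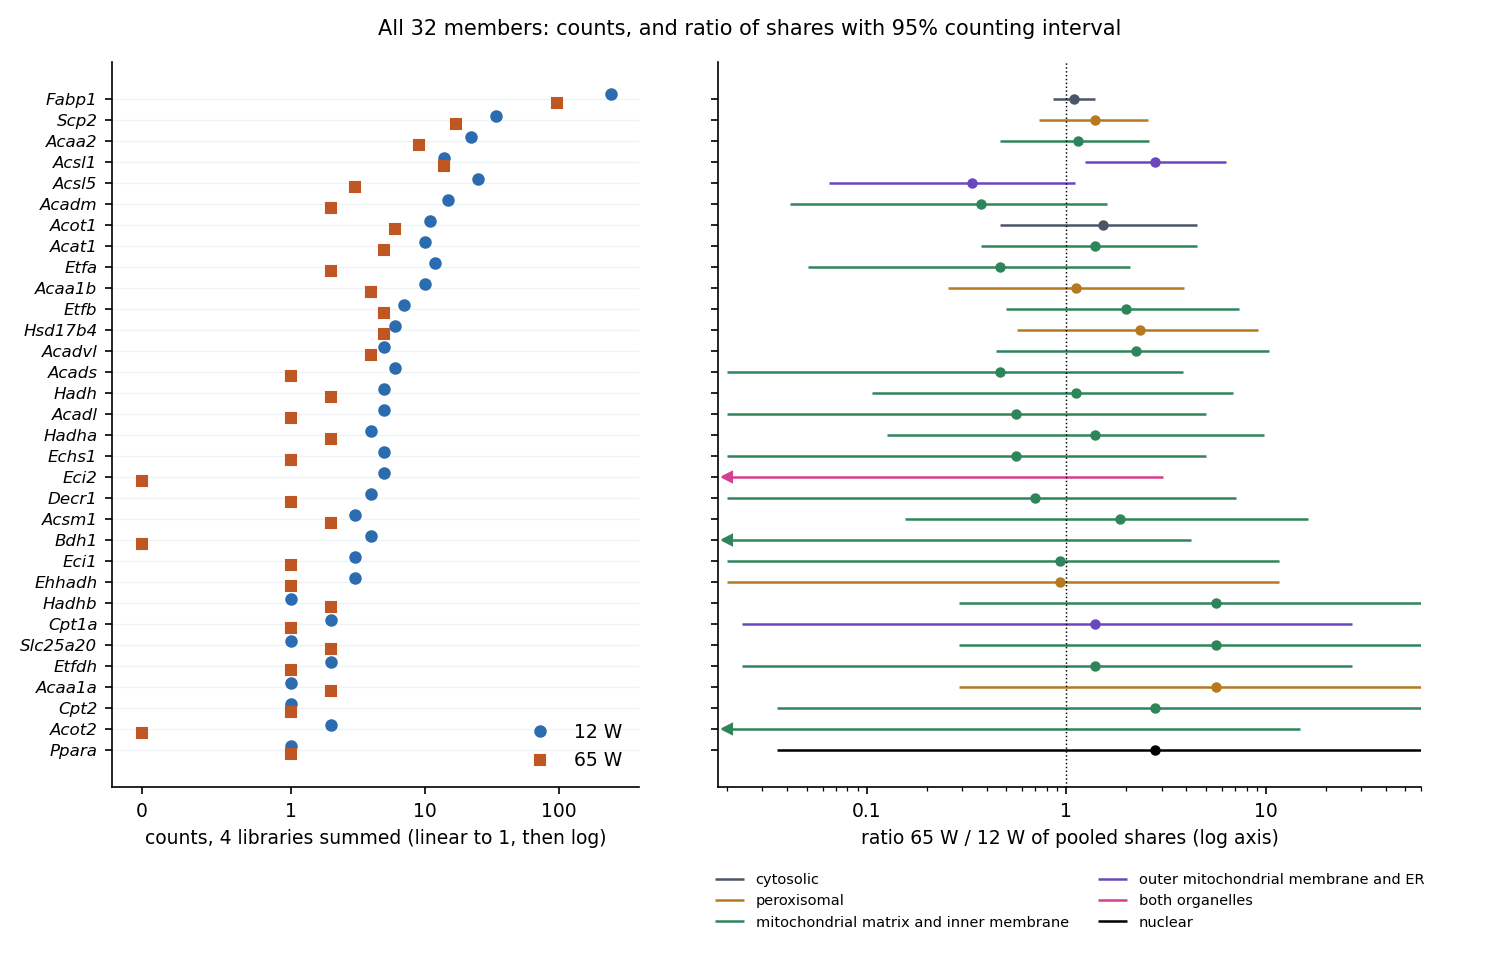
Left, counts of all 32 members summed over the 4 libraries of each age (x axis, linear to 1 and logarithmic above). Right, ratio of the pooled 65 W share to the pooled 12 W share (logarithmic x axis) with its 95% counting interval, coloured by compartment, with arrows for members at 0 at 65 W and intervals drawn to the edge where they run past it. The interval of Acsl1, from 1.24 to 6.33, is the only one that leaves out 1. The intervals leave out variation between libraries, and the same share over all genes was not computed.

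Across all 32 members, 20 had a higher pooled share at 65 W and 12 a lower one. In edgeR's fit with no filter, 11 of the 32 had a log2 fold change above 0. Their median there was -0.21, against -1.32 over all 6446 genes. Every member had at least 2 counts, while the 6446 genes include genes with 1 count. The medians are therefore not matched for counts, and their difference was not tested. The members under 20 counts numbered 27, of which 20 had between 2 and 9 counts. In 65W-1, 26 of the 32 members were at 0 and 4 had 1 count. The counting interval of 31 members included 1. This number was not set against the same share over all genes. Nor were those of members with a higher pooled share or with a log2 fold change above 0.

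Among the peroxisomal genes, Scp2 had the most counts. It encodes a thiolase for branched chains and, from the same gene, a sterol carrier protein, and lies on chromosome 4 from 108043839 to 108144998 (ENSMUSG00000028603). Its 51 counts were 13, 1, 7 and 13 at 12 W, against 3, 4, 1 and 9 at 65 W. Per 10000 other nuclear counts these were 7.98, 1.32, 4.13 and 6.29 at 12 W, against 19.7, 6.55, 3.07 and 8.11 at 65 W. The highest value, in 65W-1, came from 3 counts, and the groups overlapped. The log2 fold change was 0.61 (SE 0.52, 95% interval -0.45 to 1.67, adjusted p = 0.679 in edgeR's fit), and 0.38 without 65 W replicate 1.

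The counts of Scp2 were uncertain because of a near-identical copy. Scp2-ps2 on chromosome 9 (GENCODE type processed transcript, a pseudogene in RefSeq) matched the counted Scp2 transcript over 1371 nt at 99.6% identity, with 5 differing bases and a gap of 1. Its 38 counts were 10, 3, 9 and 9 at 12 W, against 0, 0, 0 and 7 at 65 W. The match takes in bases 1268 to 2638 of the 2640 of the Scp2 transcript, with 462 of its 1644 coding bases. A read that reaches further upstream covers sequence outside the match. The 60 bases of the coding sequence below are shown because a read confined to them is assigned by a single base, in capitals. They lie at chr4:108055503-108055562 and chr9:123307748-123307807 of GRCm38, both on the minus strand.
Scp2: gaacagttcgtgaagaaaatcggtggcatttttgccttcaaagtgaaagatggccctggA
Scp2-ps2: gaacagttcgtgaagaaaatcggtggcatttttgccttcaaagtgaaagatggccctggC
Scp2 and its copy together had 23, 4, 16 and 22 counts at 12 W and 3, 4, 1 and 16 at 65 W, or 9.87 ± 3.65 and 10.9 ± 7.53 per 10000 other nuclear counts (SD, n = 4). With the copy included, the ratio of pooled shares of the peroxisomal genes was 1.19 with an interval from 0.780 to 1.77, against 1.50 without it. For all 32 genes it was 1.11 against 1.14.

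The other peroxisomal members had few counts. Hsd17b4, the bifunctional enzyme for branched chains, had 6 at 12 W and 5 at 65 W, and Ehhadh, the bifunctional enzyme for straight chains, had 3 and 1. Acaa1b and Acaa1a, the peroxisomal thiolases, had 14 and 3 counts and are near copies of each other, with 44 differing bases in 1275 of coding sequence. The last 60 coding bases are identical, so a read confined to them cannot be placed, while the 60 bases richest in differences hold 11. Both stretches are shown for their part in assigning reads, with differing bases in capitals.
Acaa1a, coding bases 259 to 318: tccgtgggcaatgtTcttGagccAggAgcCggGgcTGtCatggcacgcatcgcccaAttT
Acaa1b, coding bases 259 to 318: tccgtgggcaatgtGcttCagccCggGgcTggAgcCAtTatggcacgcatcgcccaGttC
Acaa1a and Acaa1b, coding bases 1216 to 1275: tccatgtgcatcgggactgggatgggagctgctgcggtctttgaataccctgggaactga
The stretch with 11 differences is joined across an intron, within chr9:119341912-119342775 on the plus strand for Acaa1a and chr9:119155750-119156597 on the minus strand for Acaa1b. The shared end lies at chr9:119349974-119350033 on the plus strand for Acaa1a and at chr9:119148338-119148397 on the minus strand for Acaa1b. Summed, the pair had 2, 2, 3 and 4 counts at 12 W and 1, 1, 0 and 4 at 65 W. The thioesterases Acot1 of the cytosol and Acot2 of the matrix, which cut acyl-CoA back to free fatty acids, matched each other at 95.1% over 1274 nt and had 17 and 2 counts. In all, 11 members had another gene that matched at 90% or more over at least 300 nt, and for 5 of them that gene held counts.

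A longer list of 52 genes of the same pathways covers uptake, ketone body synthesis, further peroxisomal enzymes and targets of Ppara. Of these, 43 had counts, 530 in all, 418 at 12 W and 112 at 65 W. Their share was 0.657 ± 0.106% at 12 W and 0.490 ± 0.120% at 65 W (SD, n = 4), and the groups overlapped. The ratio of pooled shares was 0.750 with a counting interval from 0.603 to 0.926, and 0.685 (0.529 to 0.877) without the acyl-CoA binding protein Dbi, which held 123 of the counts. Counting intervals of several other gene lists left out 1 as well. The ratios were 0.880 (0.852 to 0.909) for secreted hepatocyte proteins and 1.43 (1.05 to 1.93) for the urea cycle. For 84 cytosolic ribosomal protein genes the ratio was 1.09 (1.01 to 1.18). Intervals of Kupffer cell, endothelial, stellate cell, cholangiocyte and lymphocyte markers included 1. In edgeR's fit over 442 genes, 10 of the 52 genes were tested and none passed. Of these, 2 had an unadjusted p under 0.05, against 9.50% of all 442. The log2 fold change was below 0 for 8 of the 10, with a median of -0.73, against 0.00 over all genes tested.

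Dbi, which carries acyl-CoA in the cytosol, had 91 counts at 12 W and 32 at 65 W (log2 fold change 0.14, SE 0.39). Slc27a2, a transporter that also activates very long chains, had 13, 3, 8 and 9 counts at 12 W and 0, 0, 1 and 2 at 65 W. Its groups did not overlap per 10000 other nuclear counts, as in 7.69% of the 442 genes. A single count in 65W-1 would have made them overlap. The log2 fold change of Slc27a2, -1.82 (SE 0.80), had an unadjusted p of 0.0304 and an adjusted p of 0.408 in edgeR's fit. Cyp4a14, a fatty acid omega-hydroxylase, had 28 counts at 12 W and 3 at 65 W (-1.58, SE 0.83, adjusted p = 0.530 in edgeR's fit), and its groups overlapped.

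Abcd3, Phyh and Slc27a5 had 29 counts each, with log2 fold changes of -0.08 (SE 0.71), 0.68 (SE 0.70) and -0.98 (SE 0.78). They are a peroxisomal fatty acid transporter, the hydroxylase of phytanic acid breakdown and a bile acid and fatty acid ligase.

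Another gene of the list was chosen after the values were seen. Cd36, the fatty acid translocase of the plasma membrane, had 5, 2, 10 and 5 counts at 12 W and 0, 0, 0 and 1 at 65 W. Its groups did not overlap, as in 7.69% of the 442 genes. A single count in 65W-1 would have made them overlap. The log2 fold change of Cd36 was -2.63 (SE 0.98), with an unadjusted p of 0.0118 and an adjusted p of 0.262 in edgeR's fit. Without 65 W replicate 4 the fitted value was -4.90, with all remaining 65 W libraries at 0, and the adjusted p was 0.326 in edgeR's fit.

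**Figure D4:**
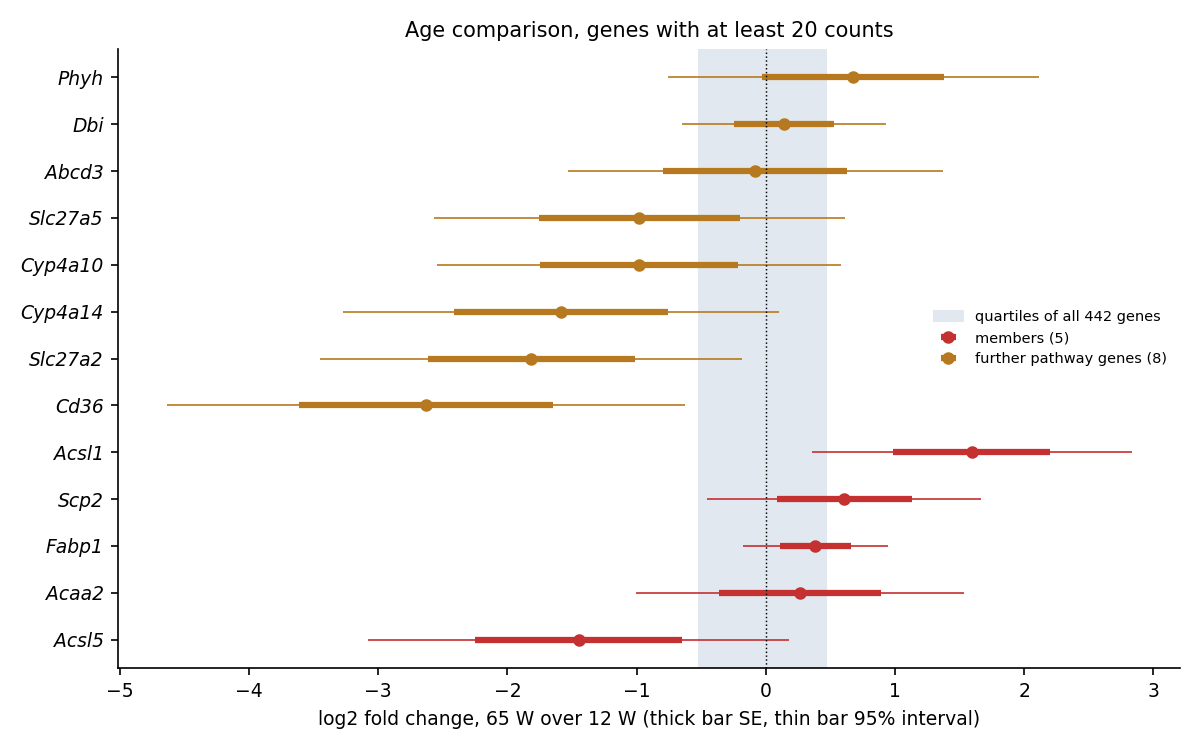
Log2 fold change at 65 W over 12 W (x axis) of the 5 members (red) and 8 further pathway genes (ochre) tested among the 442 genes with at least 20 counts, from edgeR's quasi-likelihood fit. Thick bars are SE, thin bars are 95% intervals, and the grey band spans the quartiles of all genes, from -0.52 to 0.46. Above 0 lie 4 of the 5 members, below it lie 6 of the 8 others, and none passed the threshold.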

How the data were processed

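RNA from gradient-purified liver mitochondria was sequenced as 8 Nanopore cDNA libraries, grouped by the age in their labels. The authors deposited raw counts per Ensembl transcript from the Epi2Me Labs Differential Gene Expression workflow. The submitters' processing notes name minimap2, SAMtools, edgeR, GRCm38 and mm10 without roles, and the annotation is not given in the sources used here. Reads were not strand-checked here, so overlapping genes on opposite strands cannot be told apart.

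Of 8688 transcripts, 8591 matched GENCODE M21 (GRCm38) by identifier, and the 97 others held 0.0946% of counts. Nuclear transcripts that aligned to a mitochondrial transcript over at least 100 nt at 80% identity (BLAST 2.17.0) were set aside as copies. Remaining nuclear counts were summed per gene and tested with edgeR 4.0.16 in R 4.3.3 (quasi-likelihood, TMM, filterByExpr, Benjamini-Hochberg, threshold 0.05). The fit over genes with at least 20 counts was added after the data were seen, because filterByExpr kept 1 member. DESeq2 1.42.0 and limma 3.58.1 were alternatives. Intervals of shares and of ratios of pooled shares are exact binomial (Clopper-Pearson) at 95%.

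All members were accounted for, those with at least 20 counts by library. Of the further list, the genes past the threshold and the 5 with the most counts were to be named, with ties, and some genes of the list are not reported here. Members and lists were chosen with earlier results of these data known. A check for repeated deposits of 1 library found that all pairs of libraries of a group differed by more than counting noise, and it does not show that they came from separate animals. Replicate numbers are in the labels, and the deviations of same-numbered libraries correlated at -0.12, -0.16, -0.25 and 0.17 over 98 genes, so they were not treated as pairs. Total counts were 12630 to 191092 per library. At 1523 other nuclear counts, as in 65W-1, 1 count is 6.57 per 10000, which limits any level there. The counts hold no Rnr2 row used here, so the study's scaling to Rnr2 was not applied. Promoters came from RefSeq (GRCm38.p6).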

Additional observations from a re-analysis of the deposited data

Results flagged for a closer look

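In groups of 4 libraries, the gap between the highest or lowest library and its neighbour was compared with the range of the group, for the shares and for the 5 members with at least 20 counts. Of 20 groups tested, 2 had a library that stood apart by Dixon's criterion, which flags about 1 group in 20 by chance for normally distributed values. Many of these levels rest on few counts, so that rate need not hold here, and the 2 flags cannot be set against it. The share of the peroxisomal members was 0.328% in 65W-1, against 0.0921%, 0.117% and 0.131% in the other 65 W libraries, and it came from 5 counts. Acsl5 had 2.70 counts per 10000 other nuclear counts in 65W-4 and 0 in the other 65 W libraries, from 3 counts in all. With the others at 0, the ratio of gap to range is 1 for any count above 0 in 65W-4.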

How the results depend on the processing

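The count of 9 nuclear genes past the threshold was 5 with mitochondria-encoded mRNA counts as library size, 5 with no filter and 2 with at least 10 counts in every library, and ranged from 7 to 11 when a library was left out. The log2 fold change of Fabp1 was 0.38 and turned to -0.39 with no filter, where the median over all genes was -1.32 (the cause was not tested). It was 0.20 to 0.67 with a library left out, and 18 of 19 alternatives kept its direction without passing the threshold, the lowest adjusted p being 0.0914 without 65 W replicate 4. With mitochondria-encoded counts as library size, the median over all 98 genes was -0.16 against -0.05, and Fabp1 stood at 0.31. With the replicate block, Fabp1 stood at 0.42 (adjusted p = 0.590 in edgeR's fit), and no call on a member changed.

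In the fit over 442 genes, the 10 calls ranged from 5, without 65 W replicate 4, to 15 with a library left out. Acsl1 stayed between 1.21 and 1.93, and Acsl5 between -5.07 and -1.07. With the library in parentheses left out, Dbi ranged from -0.41 (65 W replicate 2) to 0.52 (65 W replicate 4), Abcd3 from -0.63 (65 W replicate 4) to 0.44 (12 W replicate 3), Phyh from -0.69 (65 W replicate 2) to 1.21 (65 W replicate 4), Slc27a5 from -1.55 (65 W replicate 2) to -0.28 (65 W replicate 4), Scp2 from 0.38 (65 W replicate 1) to 0.90, Acaa2 from 0.072 (65 W replicate 2) to 0.38 and Cd36 from -4.90 (65 W replicate 4) to -2.22. Dbi stood at -0.083 with mitochondria-encoded counts as library size. Abcd3 stood at 0.044 with the replicate block and at 0.00061 without 65W-1 and 65W-3. The log2 ratio of mean shares, 65 W over 12 W, was 0.28 for all 32 genes (0.19 to 0.42 over 16 alternatives), -0.12 for the mitochondrial members (-0.31 to 0.29 over 14), 1.06 for the peroxisomal members (0.50 to 1.30 over 14) and 0.25 for the cytosolic members (0.09 to 0.40 over 13). The value for the mitochondrial members was above 0 without 65 W replicate 1 (0.14) and without 65W-1 and 65W-3 (0.29). The peroxisomal value was lowest, at 0.50, with Scp2-ps2 counted or without 65 W replicate 1. Of the 32 members, 27 had under 20 counts, which limits what these libraries can show.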
